A study of Mus musculus with 6 samples.

Results

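Megakaryocyte and platelet genes were followed in arrays of mouse embryonic samples labelled as hearts, with and without the transcription factor Sp3. The set held 9 genes, and every probe set annotated to one of them alone was taken, which gave 10 of the 45037 probe sets other than controls. They covered 8 of the 9 genes, since no probe set in the annotation used here was assigned to Gp1ba. One more probe set was annotated to Gp1bb together with another gene and was kept apart. The samples were labelled E12.5 heart, 3 as Sp3 knockout and 3 as wildtype, and each was labelled as total RNA of a single heart on 1 array, with letters a to c in each group. The knockout was labelled as a null of Sp3, a zinc finger factor that binds GC-rich promoter elements, and no other allele, treatment or strain was named in the sources used here.

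Megakaryocytes are the large bone marrow and fetal liver cells that shed platelets. They load platelet alpha granules with the chemokines Pf4 and Ppbp, and place on the platelet surface the receptor for von Willebrand factor (Gp1ba, Gp1bb, Gp9 and Gp5) and the fibrinogen receptor (Itga2b with Itgb3). Treml1 is an alpha granule membrane receptor, and Fli1, an ETS family transcription factor, acts with Gata1 on many of these promoters. Megakaryocytes share progenitors and several transcription factors with red cells, and endothelium also makes Fli1, Vwf and Selp.

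Promoters of 8 of the 9 genes, all but Fli1, were matched by symbol in a RefSeq table. For 4 of them the 250 bases before the start site are shown. These are the promoters of the chemokine pair, the one that holds a GC box, and that of Gp5 with 2 GATA matches. Gp1ba, which no probe set read, also had 2 GATA matches and is not shown. Bases in capitals match the GC box GGGCGG, the GATA words AGATAA or TGATAA, or the ETS words AGGAAG or CGGAAG, read on either strand.
Pf4 (GRCm38.p6, chr5:90772185-90772434, plus strand): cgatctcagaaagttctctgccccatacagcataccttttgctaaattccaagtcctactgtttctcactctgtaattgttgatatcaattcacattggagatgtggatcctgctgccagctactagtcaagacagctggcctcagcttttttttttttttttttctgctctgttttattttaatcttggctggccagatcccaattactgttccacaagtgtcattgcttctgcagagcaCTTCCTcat
Ppbp (GRCm38.p6, chr5:90768268-90768517, plus strand): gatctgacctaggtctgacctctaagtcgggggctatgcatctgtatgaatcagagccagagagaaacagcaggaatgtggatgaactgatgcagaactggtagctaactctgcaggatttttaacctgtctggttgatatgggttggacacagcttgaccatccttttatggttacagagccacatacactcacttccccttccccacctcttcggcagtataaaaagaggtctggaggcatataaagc
Gp1bb (GRCm38.p6, chr16:18622404-18622653, minus strand): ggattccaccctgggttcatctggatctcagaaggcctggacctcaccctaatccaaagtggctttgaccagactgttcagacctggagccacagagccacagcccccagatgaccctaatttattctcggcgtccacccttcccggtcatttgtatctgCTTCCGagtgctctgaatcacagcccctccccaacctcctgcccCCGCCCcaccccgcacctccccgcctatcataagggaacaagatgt
Gp5 (GRCm38.p6, chr16:30310782-30311031, minus strand): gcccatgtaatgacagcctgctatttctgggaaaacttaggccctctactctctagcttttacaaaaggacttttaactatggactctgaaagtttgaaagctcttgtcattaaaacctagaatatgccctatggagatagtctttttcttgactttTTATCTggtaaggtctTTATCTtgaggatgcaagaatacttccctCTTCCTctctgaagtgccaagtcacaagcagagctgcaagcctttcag

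Over the table's whole window, which also takes in 50 bases after the start, 6 of the 8 promoters held an ETS word, against 46.5% of the 32841 promoters in the table. A GATA word was found in 3 of 8, against 18.6%, and a GC box in 1 of 8, against 35.7%. The GC box was that of Gp1bb, with its first base 46 before the start. Pf4 held an ETS word 9 bases before the start and a GATA word at base 37 after it, outside the stretch shown. The promoters of Ppbp and Treml1 held none of these words. These matches describe the letters of the windows and do not show binding.

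All 6 arrays carried the platelet transcripts high on the scale. Of the 10 probe sets, 9 lay in the upper 20% of all probe sets by mean level, and Pf4 lay at the 99.2th percentile. The median gene of a hepatocyte list (8 measured) lay at the 99.5th percentile and that of an erythroid list (8 measured) at the 97.8th. For a heart muscle list of 10 the median gene lay at the 37.1th, with 6 of its 10 genes below the 50th, among them Myh6 and Myl2, while Actc1 lay at the 86.9th, Tnni1 at the 80.5th and Myl7 at the 78.6th. Since brightness also varies with a probe set's own sequence, the ranks of single genes give no order of transcript abundance. As whole lists, all 8 hepatocyte genes ranked above all 10 heart muscle genes, although the samples were labelled heart. The lowest hepatocyte gene, Hnf4a, lay at the 89.8th percentile. Which tissues the RNA came from was not tested. Read at the brightest probe set annotated to it alone, Sp3 was lower in knockout by 1.27 on the log2 scale. The limma adjusted p was 0.00254, a call that was lost without the trend and robust estimation. Array medians lay between 22.5 and 26.7 intensity units.

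No platelet gene passed the test between knockout and wildtype. With limma and a variance trend over intensity, 0 of the 10 probe sets were called at an adjusted p under 0.05, against 0.0311% of all probe sets (0.0155% higher and 0.0155% lower). At an unadjusted p under 0.05 there was 1, Ppbp, against 7.16% of all probe sets, and limma without the trend and robust estimation also called 0. In none of the 10 did the 3 knockout arrays lie clear of the 3 wildtype arrays, while 13% of all probe sets showed such a gap (6.15% higher and 6.89% lower). Their differences were above 0 in 4 and below 0 in 6, with signs near 0 that turned for Pf4 and the brighter Gp1bb probe set under quantile normalization and for 1 Fli1 probe set under median centring. Taking 1 probe set per gene, the median log2 difference over the 8 genes was -0.01, against -0.02 over all 18193 genes. In bulk RNA of this kind, fewer cells of a type and less RNA per cell cannot be told apart.

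Pf4, or platelet factor 4, is a chemokine of the alpha granule and a defining product of the lineage. Its log2 intensity was 11.80, 11.95 and 11.94 on knockout arrays a to c and 11.88, 11.96 and 11.88 on wildtype arrays a to c. The 6 arrays lay within 0.16 of each other and the groups overlapped fully. The means were 11.90 ± 0.08 for knockout and 11.91 ± 0.05 for wildtype (SD, n = 3 each), a difference of -0.01 with a 95% interval from -0.16 to 0.14. As a ratio of knockout to wildtype this interval runs from 0.894 to 1.10, the narrowest among the 10 probe sets. The limma adjusted p was 0.983.

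Ppbp, the precursor of beta-thromboglobulin and of the neutrophil attractant NAP-2, lies beside Pf4 in the genome. It was at 10.86, 11.05 and 10.60 on knockout arrays a to c and at 11.28, 11.22 and 11.03 in wildtype. Knockout c was the lowest array, and knockout b reached just above wildtype c, so the groups overlapped at 1 array. The means were 10.84 ± 0.23 and 11.18 ± 0.13, a difference of -0.34 with a 95% interval from -0.58 to -0.09, or a ratio of 0.791 between 0.668 and 0.937. The unadjusted limma p was 0.0106, and the adjusted p over all probe sets was 0.608, which misses the threshold. Without knockout c the difference was -0.22, and without knockout b it was -0.45. Its residual SD of 0.184 was above the median of 0.125 for the brightest of 10 classes of probe sets by level, whereas that of Pf4 was 0.0674.

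**Figure D1:**
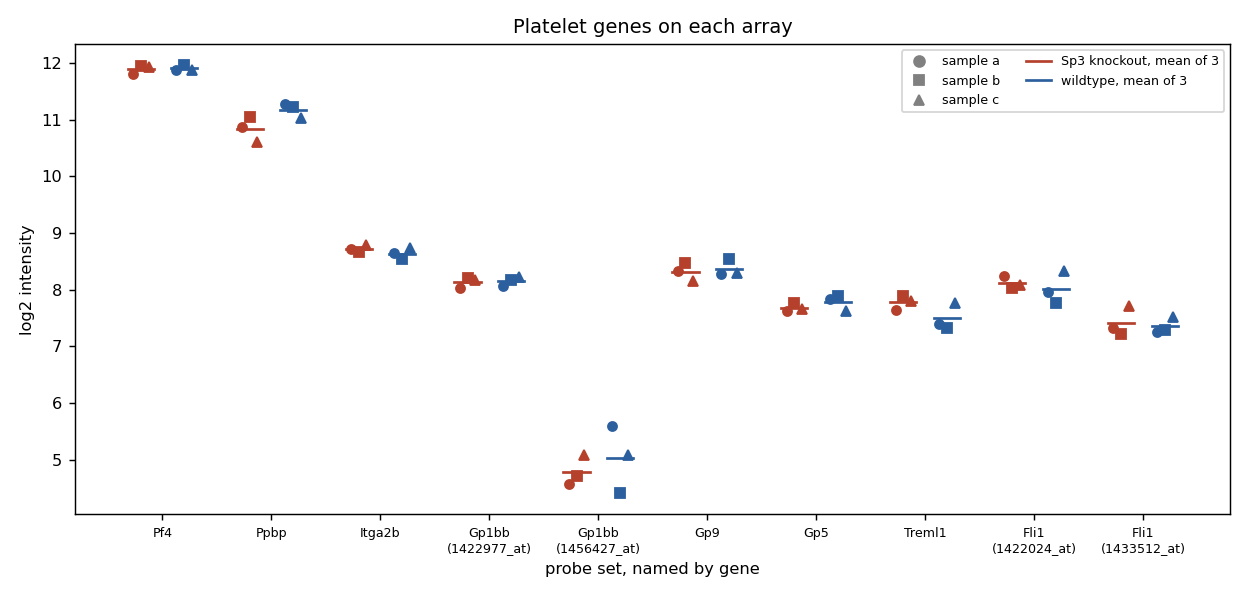
Log2 intensity of each of the 10 platelet gene probe sets on every array, with knockout arrays in red and wildtype arrays in blue, marker shape for the sample letter and a bar at each group's mean of 3. Pf4 lies within 0.16 on the 6 arrays, and the 2 groups overlap for every probe set.

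The measured subunits of the von Willebrand factor receptor, Gp1bb, Gp9 and Gp5, did not differ between the groups beyond their spread. Gp1ba was not read. Gp1bb, the beta chain that is bound to Gp1ba by a disulfide bridge, was read by 2 probe sets. At the probe set 1422977_at it was at 8.03, 8.20 and 8.18 on knockout arrays a to c and at 8.06, 8.18 and 8.23 in wildtype. These values are interleaved, with a difference of -0.02, a 95% interval from -0.29 to 0.25 and a limma adjusted p of 0.982.

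The other Gp1bb probe set, 1456427_at, gave 4.57, 4.70 and 5.08 in knockout and 5.59, 4.41 and 5.09 in wildtype. Wildtype held both the highest and the lowest array here, and the 95% interval, from -1.03 to 0.54, was the widest of the 10. Its residual SD was 0.458, against 0.0893 for the brighter probe set. The probe set shared between Gp1bb and another gene differed by -0.16, with a limma adjusted p of 0.930, and was assigned to neither.

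Gp9, which is needed for the receptor to reach the surface, was at 8.32, 8.46 and 8.15 in knockout and 8.28, 8.55 and 8.29 in wildtype. Array b was the highest in both groups and knockout c the lowest of the 6. The difference was -0.06, with a 95% interval from -0.36 to 0.23 and a limma adjusted p of 0.935.

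Gp5, the thrombin-cleaved subunit, was at 7.62, 7.76 and 7.66 in knockout and 7.84, 7.88 and 7.62 in wildtype. The lowest array overall was in wildtype although the wildtype mean was the higher one. The difference was -0.10, with a 95% interval from -0.40 to 0.20 and a limma adjusted p of 0.889.

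Itga2b, the integrin chain CD41 that appears early in the lineage and on the first blood progenitors, was at 8.73, 8.66 and 8.79 in knockout and 8.64, 8.54 and 8.73 in wildtype. Knockout was slightly higher on average and the groups overlapped. The means were 8.72 ± 0.06 and 8.64 ± 0.10 (SD, n = 3 each), with a difference of 0.09, a 95% interval from -0.16 to 0.33 and a limma adjusted p of 0.880. Its residual SD of 0.0830 lay below the median of 0.125 for probe sets of that brightness.

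Treml1, the receptor TLT-1 that reaches the platelet surface on activation, had the largest difference in the higher direction. It was at 7.64, 7.89 and 7.81 on knockout arrays a to c and at 7.39, 7.33 and 7.77 in wildtype. Wildtype c lay among the knockout arrays, and the other two wildtype arrays lay below all of them. The difference of 0.28 had a 95% interval from -0.06 to 0.63 and a limma adjusted p of 0.735. It was 0.42 without wildtype c and 0.20 without wildtype b.

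Fli1 was read by 2 probe sets, and both overlapped between the groups. At 1422024_at it was at 8.25, 8.03 and 8.09 in knockout and 7.95, 7.77 and 8.34 in wildtype, with a difference of 0.10, a 95% interval from -0.24 to 0.45 and a limma adjusted p of 0.898. Wildtype c was the highest array and wildtype b the lowest.

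At 1433512_at Fli1 was at 7.33, 7.22 and 7.71 in knockout and 7.25, 7.29 and 7.51 in wildtype. Array c was the highest of each group here. The difference was 0.07, with a 95% interval from -0.30 to 0.44 and a limma adjusted p of 0.943. An endothelial list of 10 genes, which this gene's other site of expression makes relevant, had a level between -0.09 and 0.22 in knockout and between -0.17 and 0.10 in wildtype. Its part in the Fli1 values was not tested.

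The 95% intervals come from a fit that draws each variance toward a trend over intensity. Their width thus follows brightness in part by construction. The residual SD was largest, 0.458, for the dimmer Gp1bb probe set, but it was 0.184 for Ppbp and 0.0830 for the less bright Itga2b. For 8 of the 10 the 95% interval lay within a 1.5-fold change in either direction. The exceptions were Treml1, with an upper bound of 1.55-fold, and the dimmer Gp1bb probe set. Ppbp met this limit only narrowly, with a lower bound of 0.668 as a ratio. The residual SD was below the median of probe sets of like level in 5 of the 10, namely Pf4, Itga2b, Gp9, Gp5 and the brighter one of Gp1bb.

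**Figure D2:**
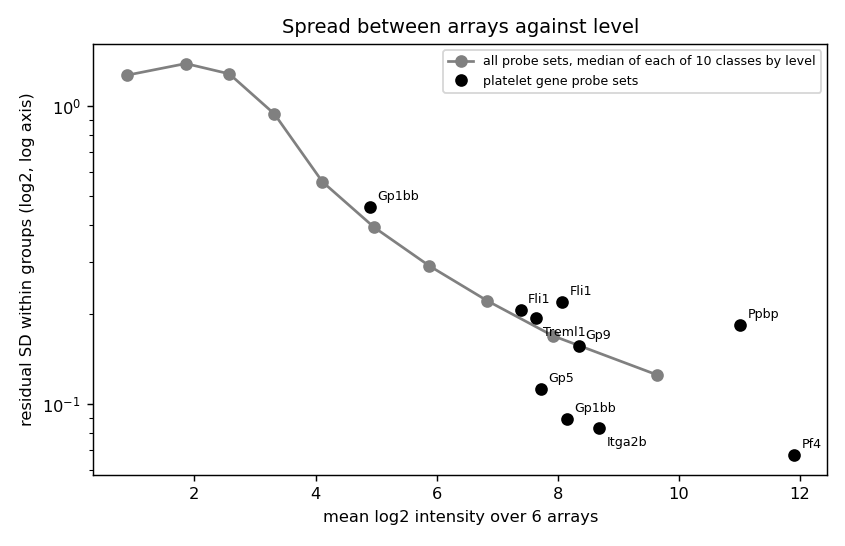
Residual SD within groups on a log axis against mean log2 intensity, for the 10 platelet gene probe sets (black) and for the median of each of 10 classes of all 45037 probe sets by level (grey line). Pf4, Itga2b, Gp5 and the brighter Gp1bb probe set lie below the line, and Ppbp, at 0.184, lies above the brightest class's median of 0.125.

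The wider platelet programme gave a like picture. Of 55 further genes of the lineage, 51 had a probe set, and limma called 0 of them higher and 0 lower in knockout, against 0.022% and 0.0275% of all 18193 genes read in the same way at their brightest probe set. At an unadjusted p under 0.05 there were 3, Lmo2, Selp and Vwf, against 8.71% of those genes. The differences were above 0 in 20 and below 0 in 31, with a median of -0.07. The groups did not overlap in 4 genes that were higher and 3 that were lower, where 6.02% and 9.04% of those genes did so. For 28 of the 51 the 95% interval lay within 1.5-fold either way.

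Among 15 measured receptors, 5 were above 0 and 10 below. Selp, or P-selectin, which platelets and endothelium store in granules, was at 4.99, 4.78 and 5.03 on knockout arrays a to c and at 3.81, 4.01 and 3.95 in wildtype. The groups lay apart, with a difference of 1.01, a 95% interval from 0.22 to 1.79 and a limma adjusted p of 0.640. This probe set was itself dim, at the 48.7th percentile, in a class by level with a median residual SD of 0.557. The other Selp probe sets, both dimmer, differed by -0.23 and 0.89 with overlapping groups. Their 95% intervals, from -1.92 to 1.46 and from -1.40 to 3.18, were too wide to give a direction.

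Itga2, the collagen-binding integrin chain, was also dim, at the 48.1th percentile, and differed by -0.83 with a limma adjusted p of 0.718. Itgb3, the partner of Itga2b in the fibrinogen receptor, was at 8.34, 7.98 and 8.38 in knockout and 8.45, 8.24 and 8.45 in wildtype. That is a difference of -0.15 with overlapping groups and a limma adjusted p of 0.838. Clec1b, the platelet receptor for podoplanin, differed by 0.06, with a 95% interval from -0.19 to 0.31.

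Of 12 granule proteins 6 were above 0 and 6 below. Vwf, the ligand of the Gp1b receptor, was at 8.09, 7.88 and 8.08 on knockout arrays a to c and at 7.78, 7.52 and 7.76 in wildtype. All 3 knockout arrays lay above all 3 wildtype arrays, by a difference of 0.33 with a 95% interval from 0.03 to 0.63. The limma adjusted p was 0.678, so it was not called. Srgn, the proteoglycan that holds Pf4 in the granule, differed by -0.16, with an adjusted p of 0.760.

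Of 10 measured cytoskeleton, signalling and enzyme genes 4 were above 0 and 6 below. Gng11, a G protein gamma subunit, differed by 0.27 without overlap, and Rgs18, a regulator of G protein signalling of platelets, by 0.24, with limma adjusted p of 0.707 and 0.743. Tubb1, the tubulin of the platelet marginal band, differed by -0.04 and Myh9, the heavy chain of platelet non-muscle myosin, by 0.02.

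The transcription factors of the lineage, 14 in all, had 5 genes above 0 and 9 below. Lmo2, a bridging subunit of the Gata1 and Tal1 complex, was at 10.64, 10.89 and 10.59 on knockout arrays a to c and at 10.95, 11.14 and 11.00 in wildtype. The groups did not overlap, with a difference of -0.32, a 95% interval from -0.53 to -0.12 and a limma adjusted p of 0.541. Mafk, a small Maf partner of Nfe2, differed by -0.30, with an adjusted p of 0.718. Nfe2 itself, the driver of platelet shedding, differed by -0.44 and Gata1 by -0.24, with adjusted p of 0.734 and 0.741.

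Genes with several probe sets did not always read alike in this group. Runx1, a regulator of megakaryocyte maturation, had 6 probe sets. One was higher in knockout without overlap, by 0.31, and another lower without overlap, by -0.44, with limma adjusted p of 0.748 and 0.733. Such gaps were found in 6.15% of all probe sets in the higher and 6.89% in the lower direction. The brightest differed by 0.04. Gata2, an early factor of the lineage, differed by 0.35 without overlap at its brighter probe set and by -0.14 with overlap at the other. The limma adjusted p were 0.733 and 0.926, so neither direction was established.

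**Figure D3:**
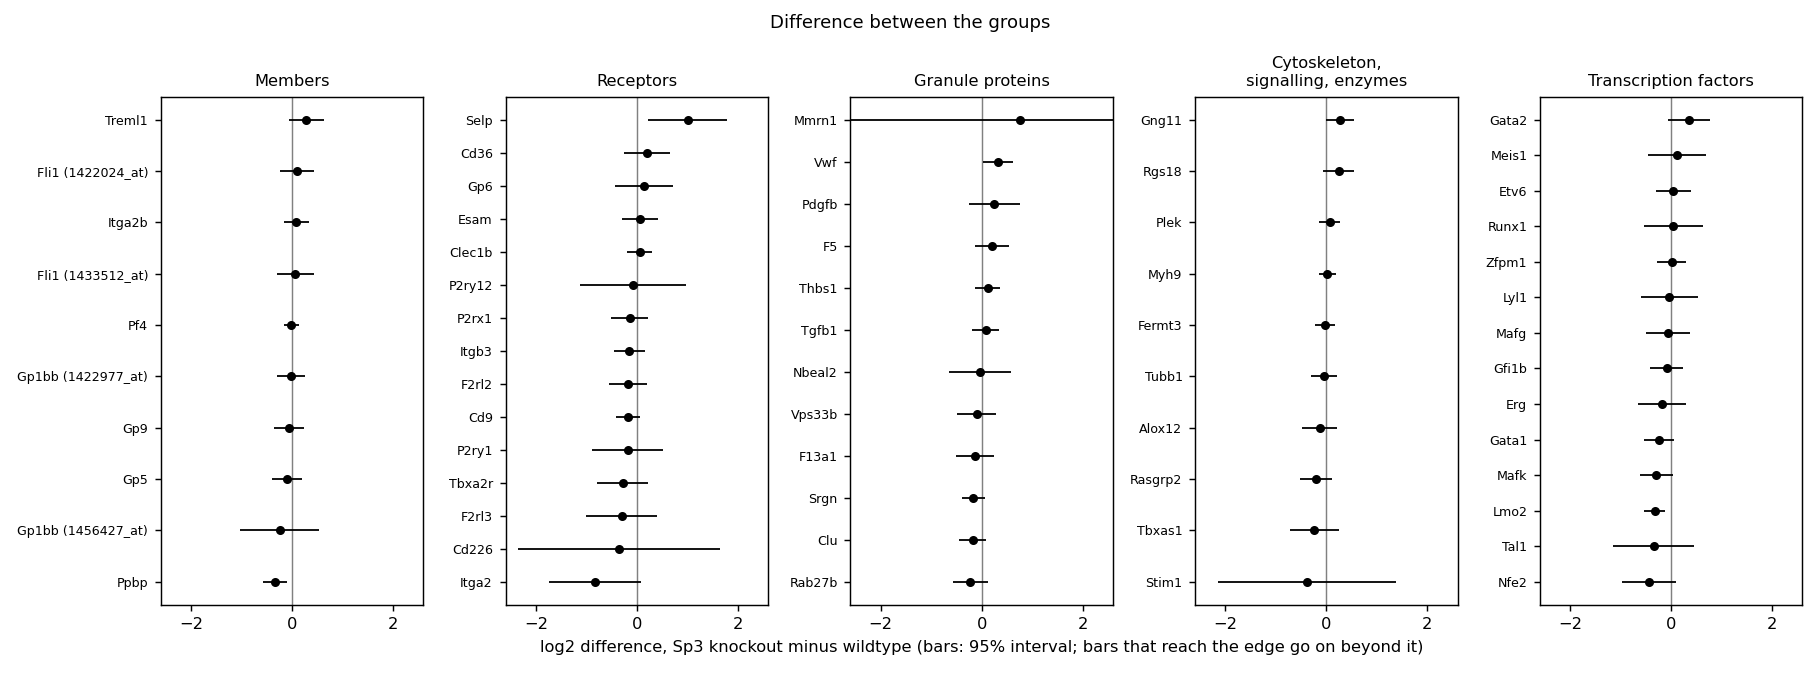
Log2 difference, knockout minus wildtype, with its 95% interval from the limma trend fit, for the 10 platelet gene probe sets and for 51 further genes of the lineage by role. Intervals of Ppbp, Selp, Vwf and Lmo2 lie off 0 before adjustment, and none of the genes was called after it.

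Knockout c was the lowest array on lists of red cell, macrophage and neutrophil genes, while the mean level of the platelet genes varied little over the arrays. The level of a list is the mean, over its genes, of each gene's log2 intensity less its own mean on the 6 arrays. The level of the 8 platelet genes was -0.03, 0.06 and -0.04 on knockout arrays a to c and -0.03, -0.01 and 0.05 on wildtype arrays a to c. Which array was lowest changed with quantile normalization and with averaging of a gene's probe sets. This mean hides members that moved in opposite ways. On knockout c, centred values were -0.41 for Ppbp and -0.20 for Gp9, but 0.17 for Treml1 and 0.11 for Itga2b. The erythroid list was at -0.60 in knockout c, and between -0.06 and 0.27 on the other 5 arrays. The neutrophil list was at -0.90 there, against -0.24 to 0.63. The macrophage list was at -0.08, 0.03 and -0.88 on knockout arrays a to c and between 0.19 and 0.46 in wildtype. All 3 knockout arrays thus lay below wildtype, with 10 of 10 genes lower on average. Over all 18193 genes, 9543 were lower and 8650 higher. No macrophage gene was called, and the smallest limma adjusted p among them was 0.350, for C1qb. The heart muscle list lay the other way, between 0.14 and 0.45 in knockout and between -0.76 and -0.12 in wildtype, with 7 of 10 genes higher. The largest differences were at dim probe sets, 2.01 for Myh6 and 1.45 for Myl2, which weigh most in this mean. The brighter Actc1, Tnni1 and Myl7 were higher by 1.09, 0.46 and 0.70. The smallest limma adjusted p in that list was 0.665, for Myl7. Knockout c was the lowest array for 10 of 10 macrophage genes, 7 of 8 erythroid genes and 6 of 9 neutrophil genes. It was lowest for 2 of the 8 platelet genes, Ppbp and Gp9, and for 7 of the 14 transcription factors. Elsewhere it was lowest for 2 of 8 hepatocyte, 1 of 10 endothelial, 2 of 7 mast cell and basophil and 1 of 10 heart muscle genes. Among 8 stem and progenitor genes it was lowest for 0. The share of all genes that were lowest on knockout c was not counted. Whether the composition of this sample, or the levels of these lists between the genotypes, bears on Ppbp or the shared factors was not tested.

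Several factors that megakaryocytes share with red cells were also lowest on that array. Zfpm1, the cofactor of Gata1, was at 9.64 in knockout c against 9.91 and 10.14 in knockout a and b, and at 9.83, 10.05 and 9.78 in wildtype. Lyl1, a close relative of Tal1, was at 8.55 there against 9.23 and 9.47, and at 9.18, 9.41 and 8.78 in wildtype. In both genes the c array was the lowest of its group, and the groups overlapped.

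**Figure D4:**
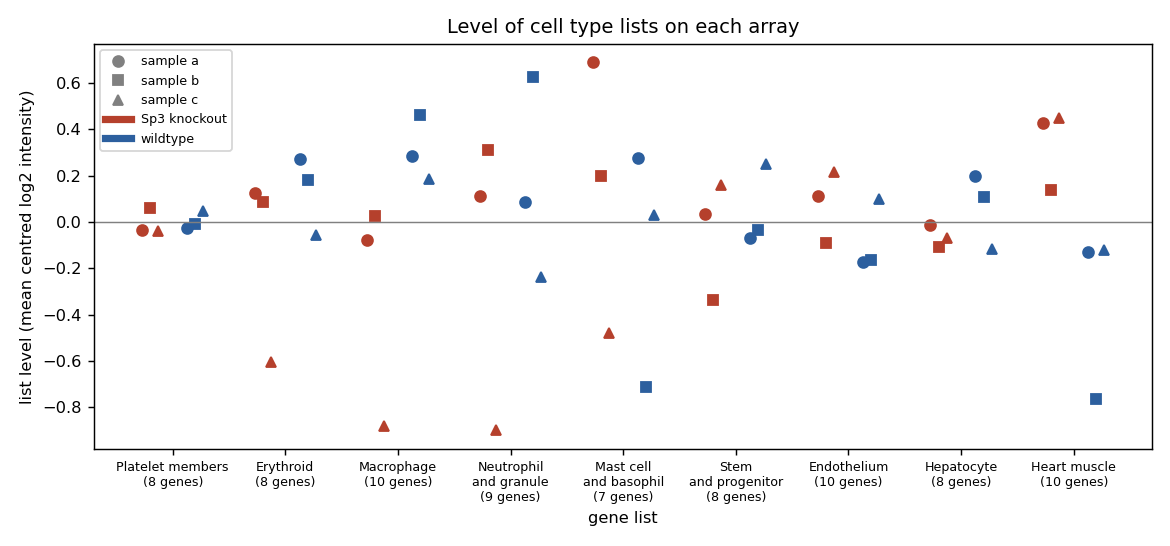
Level of each cell type list on each array, as the mean over genes of log2 intensity centred on the gene's mean of the 6 arrays, with knockout in red, wildtype in blue and marker shape for the sample letter. The mean of the platelet members stays between -0.04 and 0.06, although members moved in opposite ways on knockout c. Knockout c lies at -0.60, -0.88 and -0.90 for the erythroid, macrophage and neutrophil lists.

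The mean profile of the platelet genes averages members that moved in opposite ways on some arrays, such as Ppbp and Treml1 on knockout c, so it is flatter than its members and the genes nearest to it are ones that varied little. Over 10818 other genes above the median level, the root mean square difference from the mean centred profile of the 8 platelet genes had a median of 0.195 log2 units. The 8 genes closest to it, over the 6 arrays, were Chtop, Pfdn5, Apool, Rpl27, Psip1, Stk4, Trip6 and Tcp1, between 0.0197 and 0.0261. Measured in the same way against the mean of the other members, Gp1bb lay at 0.0643, Pf4 at 0.0663, Itga2b at 0.106, Gp5 at 0.130 and Gp9 at 0.138. Fli1 lay at 0.208, Treml1 at 0.224 and Ppbp at 0.249, above the median of the other genes.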

How the data were processed

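Intensities on a linear scale were deposited by the authors, 1 value per probe set and array. GCOS and RMA are listed in the submitters' processing notes without version or role, so the scaling of the values is not known. Log2 was taken with no further normalization. No 2 arrays shared more than 1 value, and each array was counted as 1 replicate. The labels do not say how the letters relate, so p-values reflect only how these 6 samples vary. Precision is limited by the number of arrays.

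Genes were taken from GEO's platform annotation. A gene with several probe sets was represented by the one of highest mean. The 64 control probe sets were left out. In R 4.3.3 with limma 3.58.1, lmFit and eBayes with trend and robust estimation were run on all 45037 probe sets with group as the only term, two-sided. Benjamini-Hochberg adjusted p under 0.05 was called. The trend was chosen because the spread depends on intensity.

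The members, the gene lists and this choice were made with earlier results of these data known. All members were named, with the 2 genes of smallest p per role of the wider list and the 8 closest profiles. Other named genes of the wider list were picked after their values were seen. Alternatives were eBayes without trend and robust estimation, quantile normalization, median centring, a filter on dim probe sets, 16 units added before log2, the letter as a replicate block, each array left out, shared probe sets counted and averaging a gene's probe sets.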

Additional observations from a re-analysis of the deposited data

How the results depend on the processing

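Under all alternatives run, 0 member probe sets were called, and the smallest limma adjusted p was 0.0952, for Ppbp with the letter as a replicate block. That block called 1 gene of the wider list, Nfe2, as lower (difference -0.44, limma adjusted p 0.0435), and 52 probe sets higher and 206 lower over the array, against 7 and 7 without it. The letters are not known to pair the samples: deviations of same-lettered arrays correlated at 0.01 for a, 0.31 for b and 0.44 for c across probe sets above the median level, and knockout a correlated best with wildtype b. Limma without the trend and robust estimation, dropped together, called 0 higher and 0 lower over all probe sets, and leaving out an array gave 3 to 12 higher and 0 to 12 lower.

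Differences near 0 changed sign. With quantile normalization Pf4 was at 0.0673 and the brighter Gp1bb probe set at 0.0274, and with median centring the dimmer Fli1 probe set was at -0.0059. With each array left out, differences ran from -0.0370 to 0.0380 for Pf4, -0.0670 to 0.0338 and -0.553 to 0.0359 for Gp1bb, -0.140 to 0.0254 for Gp9, and -0.0225 to 0.261 and -0.0738 to 0.168 for Fli1. Ppbp stayed below 0, from -0.45 to -0.22, as did Gp5. Treml1 stayed above 0, from 0.20 to 0.42, as did Itga2b. The list level of wildtype a was 0.0213 where a gene's probe sets were averaged, and that of wildtype c was -0.0171 after quantile normalization.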

Other observations

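At their brightest probe sets, Mmrn1 and Stim1 varied between arrays of the same genotype far more than between the genotypes. Mmrn1, multimerin 1, a factor V-binding protein of the alpha granule, was at 6.31 and 6.64 in knockout a and b and at 6.26 and 6.58 in wildtype a and b. It was at 3.05 in knockout c and 0.88 in wildtype c. Both c arrays thus lay more than 3 log2 units below the other 4 arrays, and its 95% interval for the group difference, from -4.84 to 6.37, was the widest of the 51 genes. The other Mmrn1 probe set lay at the 0.173th percentile, among the dimmest, where levels have no order. Stim1, the calcium sensor of the platelet store, was at 5.08 in knockout c and 5.57 in wildtype c at its brightest probe set, and between 6.72 and 7.29 on the other 4 arrays. At its second probe set it was between 5.41 and 6.17 on all 6 arrays, with no such gap. The genes were picked after their values were seen, and what the c arrays share was not given in the sources used here.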
